A study of Mus musculus with 24 samples.

Results

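The genes described here are 10 mouse genes, 9 for enzymes that reduce carbonyl groups, quinones and related compounds and 1 for an epoxide hydrolase, measured in the livers of Keap1-silenced mice. They were taken by name from a list: the carbonyl reductases Cbr1, Cbr3 and Cbr4, the quinone reductases Nqo1 and Nqo2, the alkenal and prostaglandin reductase Ptgr1, the aldo-keto reductases Akr1b7, Akr1b8 and Akr1c6, and the microsomal epoxide hydrolase Ephx1. Every probe set annotated to 1 of these genes and to no other gene was used. This gave 11 probe sets for 9 of the 10 genes, out of 45037 probe sets and 18193 genes tested. No probe set was annotated to Akr1b7 alone, so Akr1b7 was not analysed here. Nqo2 had 3 probe sets and each of the other 8 measured genes had 1.

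RNA from 24 mouse livers was hybridised to Affymetrix whole genome arrays, with 1 array per mouse and 8 mice per siRNA. The groups were siKeap1-1 and siKeap1-2, which are different siRNAs against Keap1, and siControl, a scrambled siRNA with no intended target. All mice were male C57BL6/J, were 8 weeks old at the start and ate a Western diet with 6% sucrose in the drinking water. Each siRNA was packed in lipid nanoparticles that deliver mainly to hepatocytes and was injected into the tail vein every week at 1 mg per kg for 7 weeks. According to the methods, 4 mice of each group were fed and 4 were fasted before the livers were taken, but the labels do not say which. Both Keap1 siRNAs were compared with the same 8 siControl arrays, so the comparisons with siControl share their error. A whole liver was measured in each case, so that fewer cells of a type and less RNA per cell cannot be told apart.

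Keap1 is the adaptor that holds the transcription factor Nrf2 (gene Nfe2l2) and hands it to a ubiquitin ligase, and loss of Keap1 lets Nrf2 collect in the nucleus and bind antioxidant response elements. Carbonyl reductases and aldo-keto reductases pass hydride from NADPH to aldehydes, ketones and quinones, and quinone reductases carry quinones straight to hydroquinones without a reactive semiquinone in between. Nqo1 is one of the best known Nrf2 target genes, and the liver uses all of these enzymes to deal with drugs, steroids and products of lipid peroxidation.

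Values are log2 signals as the authors normalised them, so a difference of 1 is a doubling of signal. A gene with several probe sets was represented by the brightest. Differences were tested with limma over all 45037 probe sets, and a gene was called higher or lower at a Benjamini-Hochberg adjusted p below 0.05. Within groups, arrays correlated between 0.9885 and 0.996 across probe sets, and the median signal of an array lay between 5.84 and 5.96. The 18S ribosomal RNA control probe set separated replicates 1 to 3 from replicates 4 to 8 in siKeap1-1 and in siControl, but not in siKeap1-2, where they overlapped. It read 10.17 to 10.44 in siKeap1-1 replicates 1 to 3 and 11.17 to 11.43 in siKeap1-1 replicates 4 to 8, 10.82 to 11.12 and 10.45 to 10.96 in the same replicates of siKeap1-2, and 10.34 to 10.77 and 8.86 to 9.54 in those of siControl. Fits with this signal as a covariate and with only some of the siControl arrays were made, and their values stand beside the results that changed. The 8 hepatocyte marker genes averaged 14.27 to 14.49 in siKeap1-1 livers, 14.41 to 14.49 in siKeap1-2 livers and 14.45 to 14.55 in siControl livers. With limma 0 of the 8 passed in either comparison, and at an unadjusted p below 0.05 the count was 1 (lower) for siKeap1-1 and 0 for siKeap1-2. Of 5 bile duct genes, only Sox9 passed and was higher with both siRNAs (log2 fold changes 0.87 and 0.96), while at an unadjusted p below 0.05 Epcam (-0.38) and Krt7 (-0.33) were below siControl in siKeap1-2 livers. The summed linear signal of the 5 was 706 to 1003 in siKeap1-1, 678 to 1003 in siKeap1-2 and 493 to 839 in siControl livers. Of 6 Kupffer cell genes, 2 were lower with siKeap1-1 (Timd4 and Vsig4), while with siKeap1-2 Timd4 was lower and Marco higher, and their summed signal was 6047 to 11744, 7338 to 15701 and 7019 to 12558 in the same order of groups. Of the lists for stellate, endothelial and lymphoid cells and for pancreas, intestine and adrenal gland, the endothelial gene Cdh5 was lower with siKeap1-2 (-0.32, limma adjusted p = 0.0401) and the pancreatic gene Cpa1 was higher with siKeap1-1 (0.31, limma adjusted p = 0.0348), and no other gene passed. Their part in the results below was not tested.

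The targeted gene was lower in every mouse that received a Keap1 siRNA. The Keap1 signal ran from 7.21 to 7.93 with a median of 7.47 in siKeap1-1 livers, from 8.03 to 8.59 with a median of 8.23 in siKeap1-2 livers, and from 9.33 to 10.03 with a median of 9.57 in siControl livers. The 3 groups did not overlap. The log2 fold change was -2.13 ± 0.11 (SE, n = 8 per group) for siKeap1-1 and -1.36 ± 0.11 for siKeap1-2 (limma adjusted p = 2.28e-12 and 1.89e-08). In an exact two-sided permutation test each difference gave p = 0.0001554, the smallest that 12870 splits allow. The difference of -0.76 between siKeap1-1 and siKeap1-2 also passed (limma adjusted p = 0.0022). A second Keap1 probe set was below the array median on all arrays and was lower by limma too, with log2 fold changes of -0.42 and -0.44 (adjusted p = 0.0262 and 0.026). The brightest Nfe2l2 probe set was lower in both groups, with log2 fold changes of -0.63 for siKeap1-1 and -0.49 for siKeap1-2 (limma adjusted p = 4.14e-05 and 0.00117), and the other had -0.40 and -0.26 and did not pass (limma adjusted p = 0.163 and 0.423).

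Of the 9 measured genes, 6 rose with siKeap1-1, namely Cbr1, Cbr3, Nqo1, Ephx1, Ptgr1 and Akr1b8, against 4.82% of all genes that were called higher in that comparison. With siKeap1-2, 5 rose, the same genes without Ptgr1, against 2.85% of all genes. The list was chosen with earlier results of these data known, so the shares in this paragraph describe the genes and do not test the list. No member was called lower by limma in either comparison, while 4.67% and 3.75% of all genes were. At an unadjusted p below 0.05 the count was also 0, against 12% and 12.7% of all genes. The median log2 fold change of the 9 genes was 0.80 for siKeap1-1 and 0.78 for siKeap1-2, and over all genes it was 0.01 and -0.01. All 8 siKeap1-1 arrays lay above all 8 siControl arrays for 4 members, against 1.12% of all genes, and all 8 siKeap1-2 arrays did so for 5 members, against 0.94%. At a stricter cut of more than 2-fold and an unadjusted limma p below 0.01, Cbr1, Cbr3 and Nqo1 were higher with either siRNA, 3 of 9 genes in each comparison, against 0.55% of all genes for siKeap1-1 and 0.511% for siKeap1-2. The remaining measured genes, Cbr4, Nqo2 and Akr1c6, had log2 fold changes between -0.11 and 0.00 and passed in neither comparison.

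**Figure D1:**
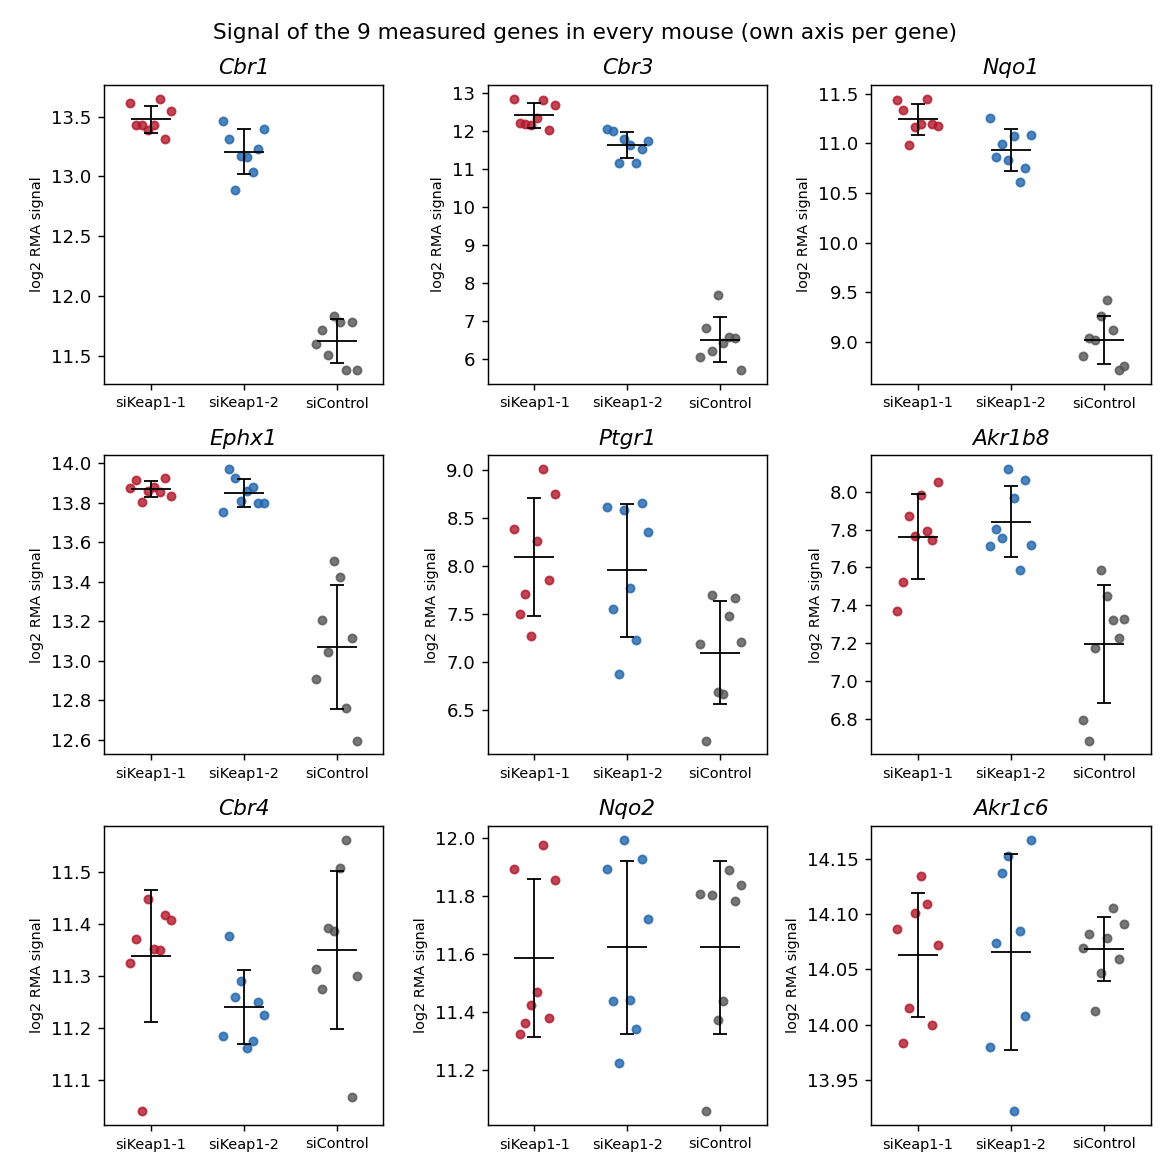
Log2 RMA signal of the brightest probe set of each of the 9 measured genes in every mouse, with siKeap1-1, siKeap1-2 and siControl from left to right. Points are single arrays, lines are means with SD (n = 8), and each gene has an axis of its own. The groups are apart for Cbr1, Cbr3, Nqo1 and Ephx1 when Keap1-silenced livers are set against siControl livers, and they overlap for Cbr4, Nqo2 and Akr1c6.

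Cbr3 encodes a cytosolic carbonyl reductase of the short-chain dehydrogenase family. Its signal ran from 12.01 to 12.84 with a median of 12.27 in siKeap1-1 livers, from 11.15 to 12.05 with a median of 11.69 in siKeap1-2 livers, and from 5.71 to 7.69 with a median of 6.49 in siControl livers. Both silenced groups were far from siControl, where 7 of 8 arrays read above the median signal of their array. The highest control value, 7.69, came from siControl replicate 4, and the next was 6.82. Cbr3 rose by 5.90 ± 0.20 on the log2 scale (SE, n = 8 per group) with siKeap1-1, or 59.5-fold (limma adjusted p = 6.84e-16). With siKeap1-2 it rose by 5.12 ± 0.20, or 34.9-fold (limma adjusted p = 1.95e-14). The siControl signals lay near the median signal of their arrays, where an array can understate a difference, so the size of the fold rests on dim control values. In each comparison this was the largest absolute fold change among the 45037 probe sets.

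Cbr1 encodes the broad carbonyl reductase that reduces quinones, prostaglandins and anthracycline drugs. Cbr1 signals ran from 13.32 to 13.65 with a median of 13.43 in siKeap1-1 livers, from 12.89 to 13.46 with a median of 13.20 in siKeap1-2 livers, and from 11.38 to 11.83 with a median of 11.65 in siControl livers. All 16 silenced arrays were above all 8 control arrays. Cbr1 rose by 1.86 ± 0.08 on the log2 scale (3.62-fold) with siKeap1-1 and by 1.59 ± 0.08 (3.00-fold) with siKeap1-2 (SE, n = 8 per group, limma adjusted p = 8.78e-14 and 3.01e-12).

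Cbr4 encodes the mitochondrial carbonyl reductase, which works in a complex with Hsd17b8 in mitochondrial fatty acid synthesis. Its signal ran from 11.04 to 11.45 with a median of 11.36 in siKeap1-1 livers, from 11.16 to 11.38 with a median of 11.24 in siKeap1-2 livers, and from 11.07 to 11.56 with a median of 11.35 in siControl livers. The 3 groups overlapped. The log2 fold change was -0.01 for siKeap1-1 (95% interval -0.15 to 0.12, limma adjusted p = 0.942) and -0.11 for siKeap1-2 (95% interval -0.25 to 0.03, limma adjusted p = 0.368). Neither interval reached a fold change of the size seen for Cbr1 or Cbr3.

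Nqo1, the NAD(P)H quinone reductase, ran from 10.98 to 11.45 with a median of 11.20 in siKeap1-1 livers, from 10.61 to 11.25 with a median of 10.93 in siKeap1-2 livers, and from 8.71 to 9.42 with a median of 9.03 in siControl livers. All silenced arrays lay above all controls. Nqo1 rose by 2.22 ± 0.10 on the log2 scale (4.66-fold) with siKeap1-1 and by 1.91 ± 0.10 (3.76-fold) with siKeap1-2 (SE, n = 8 per group). The limma adjusted p was 8.78e-14 for siKeap1-1 and 3.01e-12 for siKeap1-2.

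Nqo2 encodes the related quinone reductase that takes its electrons from dihydronicotinamide riboside in place of NADPH. Its brightest probe set ran from 11.32 to 11.98 with a median of 11.45 in siKeap1-1 livers, from 11.22 to 12.00 with a median of 11.58 in siKeap1-2 livers, and from 11.06 to 11.89 with a median of 11.79 in siControl livers. The groups overlapped over most of their range. The log2 fold changes of the 3 Nqo2 probe sets were -0.04, -0.24 and -0.40 for siKeap1-1 and 0.00, 0.00 and -0.11 for siKeap1-2, and none passed by limma (smallest adjusted p = 0.274, with 0 of 3 at an unadjusted p below 0.05 in either comparison). For the brightest probe set the 95% intervals were -0.32 to 0.25 and -0.29 to 0.28.

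The Nqo2 signal had an SD of 0.27 in siKeap1-1, 0.30 in siKeap1-2 and 0.30 in siControl livers, and its values left a gap. No array lay between 11.47 and 11.72, with 12 of the 24 arrays above and 12 below. The arrays above were 3 of 8 in siKeap1-1, 4 of 8 in siKeap1-2 and 5 of 8 in siControl. The same arrays were the highest of their group on both other Nqo2 probe sets. They were also the highest of their group for Ptgr1, where they read 8.39 to 9.01 against 7.27 to 8.26 for the other siKeap1-1 arrays, 8.35 to 8.66 against 6.87 to 7.77 in siKeap1-2, and 7.19 to 7.70 against 6.17 to 6.69 in siControl. This was seen in the values and was not tested. The gap was 0.25 wide, and the next largest gap between ordered Nqo2 values was 0.17. The methods give 4 fed and 4 fasted mice per group, beside 3, 4 and 5 arrays above the gap. The labels do not tell fed mice from fasted ones, and a link with feeding was not tested.

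The carbonyl reductases Cbr3 and Cbr1, both on chromosome 16, had increases of unequal size. Nqo1 is the quinone reductase that rose, and Cbr4 a carbonyl reductase that did not pass the test. The promoter sequences of these 4 genes are shown for that reason. Each is the 250 bases before the annotated start of the gene, 5′ to 3′ on the strand of the gene, from RefSeq on build GRCm38.p6. Capitals mark the GC box letters GGGCGG and the TATA letters TATAAA on either strand.
Cbr3 (chr16:93682969-93683218, plus strand): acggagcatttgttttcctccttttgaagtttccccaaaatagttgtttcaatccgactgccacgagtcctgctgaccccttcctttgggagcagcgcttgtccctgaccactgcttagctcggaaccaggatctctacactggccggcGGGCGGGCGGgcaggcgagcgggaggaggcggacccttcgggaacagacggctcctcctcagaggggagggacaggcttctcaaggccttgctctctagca
Cbr1 (chr16:93607587-93607836, plus strand): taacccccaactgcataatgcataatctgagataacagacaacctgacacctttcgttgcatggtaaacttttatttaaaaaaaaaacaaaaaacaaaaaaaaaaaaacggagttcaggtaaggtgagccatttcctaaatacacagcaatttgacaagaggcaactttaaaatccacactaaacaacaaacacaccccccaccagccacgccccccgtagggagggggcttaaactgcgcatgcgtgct
Nqo1 (chr8:107403206-107403455, minus strand): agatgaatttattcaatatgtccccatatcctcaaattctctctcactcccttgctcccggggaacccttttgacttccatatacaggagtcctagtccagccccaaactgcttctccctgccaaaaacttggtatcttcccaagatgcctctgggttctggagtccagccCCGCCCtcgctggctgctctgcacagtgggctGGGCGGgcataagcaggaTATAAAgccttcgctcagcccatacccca
Cbr4 (chr8:61487484-61487733, plus strand): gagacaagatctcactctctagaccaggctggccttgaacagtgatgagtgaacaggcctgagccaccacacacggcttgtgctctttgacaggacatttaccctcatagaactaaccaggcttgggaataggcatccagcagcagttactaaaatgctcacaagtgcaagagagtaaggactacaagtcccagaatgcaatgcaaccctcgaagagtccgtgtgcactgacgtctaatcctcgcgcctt

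The Cbr3 window held 2 overlapping GC boxes and was 59.6% G and C. The Cbr1 window held neither motif and was 41.6% G and C. The Nqo1 window held 2 GC boxes and 1 TATA motif, and the Cbr4 window held neither. Of the windows not shown, those of Ptgr1 and Akr1b8 held 2 GC boxes each, and those of Ephx1, Akr1c6 and Akr1b7 held 0 GC boxes. The Nqo2 window starting at chr13:33964409 held 1 GC box and its other window 0. Those of Ephx1, Akr1b8 and Akr1c6 held 1 TATA motif each, and those of Ptgr1, Akr1b7 and Nqo2 held 0. A link between these motifs and the changes was not tested. GC boxes were found in 32.7% and TATAAA in 12.4% of all 32851 promoter windows of this length in the table. The core letters of the antioxidant response element, TGACNNNGC on either strand, were in 0 of the 10 listed genes in the 300 bases around the start (250 before and 50 after), against 14.0% of all 27025 genes. In the 250 bases before the start the count was 0 of 10 against 11.5%. This says only that the letters are not in these windows.

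Ephx1, which opens epoxides with water to form diols and is not a reductase, rose in both groups. Ephx1 signals ran from 13.80 to 13.93 with a median of 13.87 in siKeap1-1 livers, from 13.76 to 13.97 with a median of 13.83 in siKeap1-2 livers, and from 12.60 to 13.51 with a median of 13.08 in siControl livers. The silenced arrays lay above all controls. The SD was 0.04 in siKeap1-1 and 0.07 in siKeap1-2 livers, against 0.31 in siControl livers, where replicate 8 was lowest and replicate 4 highest. Ephx1 rose by 0.80 ± 0.09 on the log2 scale (1.74-fold) with siKeap1-1 and by 0.78 ± 0.09 (1.72-fold) with siKeap1-2 (SE, n = 8 per group, limma adjusted p = 3.1e-06 and 6.97e-06). The silenced livers gave bright signals, and whether this understates the rise or narrows their spread was not tested.

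Ptgr1 encodes prostaglandin reductase 1, which reduces the double bond of alkenals and of 15-oxo prostaglandins. Ptgr1 signals ran from 7.27 to 9.01 with a median of 8.06 in siKeap1-1 livers, from 6.87 to 8.66 with a median of 8.06 in siKeap1-2 livers, and from 6.17 to 7.70 with a median of 7.20 in siControl livers. The groups overlapped, with 6 of 8 siKeap1-1 arrays and 5 of 8 siKeap1-2 arrays above the highest control. The log2 fold change was 1.00 ± 0.29 (SE, n = 8 per group) for siKeap1-1 and passed (limma adjusted p = 0.0294), and it was 0.86 ± 0.29 for siKeap1-2 and did not pass (limma adjusted p = 0.0773). Without siKeap1-1 replicate 1, 5, 6 or 8, or without siControl replicate 2, 4 or 5, the Ptgr1 call for siKeap1-1 was lost (limma adjusted p from 0.0522 to 0.0653), and without siKeap1-2 replicate 3 the gene passed for siKeap1-2 (1.01, limma adjusted p = 0.035). Fitting the 18S signal as a covariate, keeping only siControl replicates 1 to 3 and keeping only siControl replicates 4 to 8 each ended the siKeap1-1 call as well, with log2 fold changes of 1.09, 1.07 and 0.95 (limma adjusted p = 0.164, 0.172 and 0.0656). With the first residual component as a covariate Ptgr1 passed for siKeap1-2 (0.86, limma adjusted p = 0.00496).

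Akr1b8 encodes an aldo-keto reductase close to aldose reductase. Its signal ran from 7.37 to 8.05 with a median of 7.78 in siKeap1-1 livers, from 7.59 to 8.12 with a median of 7.78 in siKeap1-2 livers, and from 6.68 to 7.585 with a median of 7.27 in siControl livers. Of the siKeap1-1 arrays, 6 of 8 were above the highest control. The lowest siKeap1-2 array, at 7.586, was just above it. Akr1b8 rose by 0.57 ± 0.12 on the log2 scale (1.48-fold) with siKeap1-1 and by 0.65 ± 0.12 (1.57-fold) with siKeap1-2 (SE, n = 8 per group, limma adjusted p = 0.00315 and 0.0016). The size depended on which siControl arrays were kept, with all 8 arrays of each silenced group in the fit. Against siControl replicates 1 to 3 alone the log2 fold changes were 0.88 and 0.96. They were 0.38 and 0.46 against replicates 4 to 8 alone. All 4 were still called (limma adjusted p from 0.000771 to 0.028). With the same replicates kept in every group, the differences of means were 0.71 and 0.88 for replicates 1 to 3. For replicates 4 to 8 they were 0.49 and 0.51. These control subsets also differ in 18S signal, and the cause of the change in size was not tested.

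Akr1c6 encodes the liver aldo-keto reductase that acts on 17-keto steroids. Its signal ran from 13.98 to 14.13 with a median of 14.08 in siKeap1-1 livers, from 13.92 to 14.17 with a median of 14.08 in siKeap1-2 livers, and from 14.01 to 14.11 with a median of 14.07 in siControl livers. The groups overlapped. The log2 fold changes were -0.01 and 0.00 with 95% intervals of -0.10 to 0.09 in both comparisons (limma adjusted p = 0.964 and 0.985). These are bright signals, beside a mean of 14.80 for the hepatocyte marker gene Alb in siControl livers. Whether so bright a signal understates a difference was not tested. Akr1a1, a related gene with a siControl mean of 14.01, was called higher, by 0.25 and 0.20 (limma adjusted p = 0.000542 and 0.00536).

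**Figure D2:**
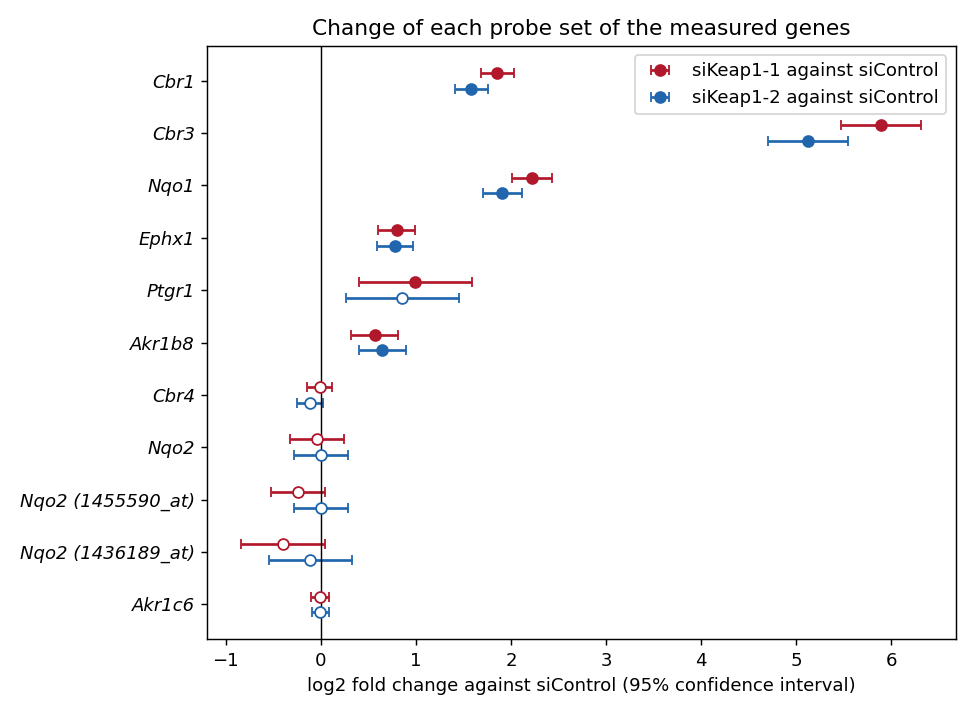
Log2 fold change against siControl with its 95% confidence interval for each of the 11 probe sets, siKeap1-1 above siKeap1-2 for each gene. Filled points passed an adjusted p of 0.05 in limma and open points did not. Cbr3 stands at 5.90 and 5.12, Nqo1 and Cbr1 lie between 1.59 and 2.22, and all probe sets of Nqo2, Cbr4 and Akr1c6 have intervals that include 0.

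The siRNAs were then set against each other. None of the 9 genes differed between siKeap1-1 and siKeap1-2 livers by limma at an adjusted p below 0.05, where 0.242% of all genes did, and 3 were higher with siKeap1-1 at an unadjusted p below 0.05. These were Cbr3, Cbr1 and Nqo1. At that unadjusted threshold 6.33% of all genes were higher and 2.96% lower. Cbr3 was 0.77 higher on the log2 scale with siKeap1-1 than with siKeap1-2 (95% interval 0.35 to 1.19, limma adjusted p = 0.16), and 7 of 8 siKeap1-1 arrays were above the highest siKeap1-2 array. Without siControl replicate 4, the control array with the highest Cbr3 signal, the same difference passed (limma adjusted p = 0.049). The difference itself stayed at 0.77, because siControl arrays enter this comparison only through the spread shared by the 3 groups. The SD of Cbr3 was 0.33 in siKeap1-1, 0.34 in siKeap1-2 and 0.59 in siControl livers. For Cbr1 the difference was 0.27 (95% interval 0.10 to 0.44, limma adjusted p = 0.255), and for Nqo1 it was 0.31 (95% interval 0.10 to 0.52, limma adjusted p = 0.282). Ephx1, Ptgr1 and Akr1b8 had differences of 0.02 (95% interval -0.17 to 0.21), 0.14 (-0.45 to 0.73) and -0.08 (-0.32 to 0.17). All these intervals use the spread shared by the 3 groups. The SD of Ephx1 was 0.04 in siKeap1-1, 0.07 in siKeap1-2 and 0.31 in siControl livers. Its interval is therefore wider than the spread of the compared groups alone would give. Keap1 itself did differ between the siRNAs, as given above.

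Within an siRNA group the Keap1 signal of a mouse was compared with its signal for each member, over 8 arrays at a time. Of 18 relations, 10 had a negative Pearson's r, and the exact permutation test gave an unadjusted p below 0.05 for 1 of the 18 values of r and 1 of the 18 values of rho, while 0 passed after adjustment (smallest adjusted p of r = 0.463). Cbr3 gave r = -0.60 (exact permutation p = 0.118, adjusted p = 0.481) and Spearman's rho = -0.64 (exact permutation p = 0.0962, adjusted p = 0.346) in siKeap1-1. Without the 2 arrays farthest from the Keap1 median r was -0.04. Leaving them out also narrows the range of Keap1 signal, so this cannot show whether r rested on those arrays. In siKeap1-2 Cbr3 gave r = -0.01 (exact permutation p = 0.988, adjusted p = 0.988) and rho = -0.17 (exact permutation p = 0.703, adjusted p = 0.89). By r the relation below 0.05 was that of Akr1c6 in siKeap1-2, with r = -0.79 (exact permutation p = 0.0257, adjusted p = 0.463) and rho = -0.67 (exact permutation p = 0.0831, adjusted p = 0.346), over a range of Akr1c6 signal of 0.25. By rho it was that of Cbr4 in siKeap1-1, which was positive, with rho = 0.74 (exact permutation p = 0.0458, adjusted p = 0.346) and r = 0.58 (exact permutation p = 0.161, adjusted p = 0.483).

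**Figure D3:**
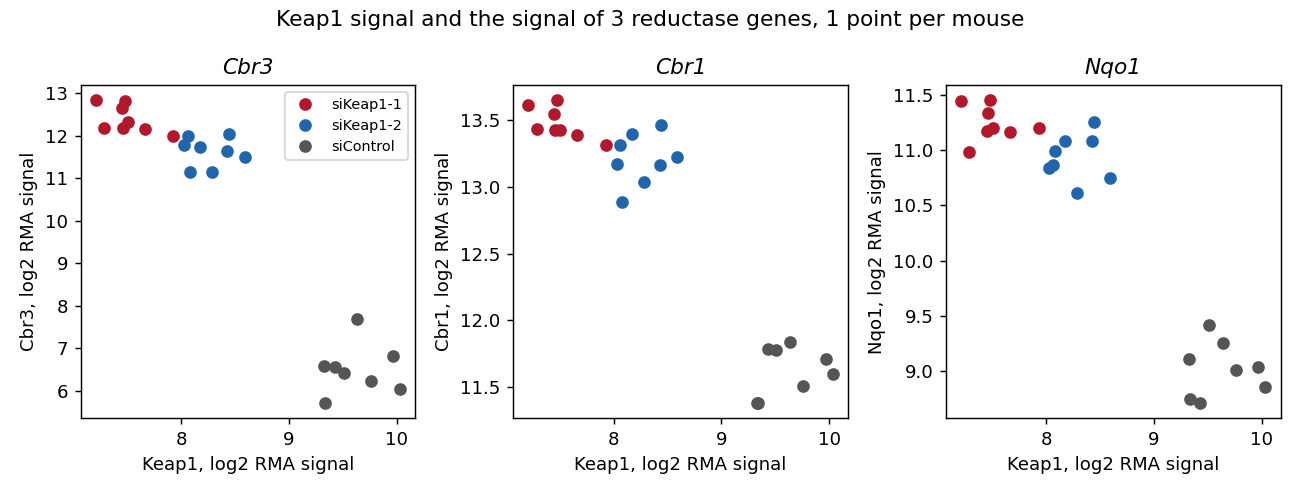
Log2 signal of Cbr3, Cbr1 and Nqo1 on the vertical axes against the log2 signal of Keap1 on the horizontal axis, with 1 point per mouse. The siKeap1-1, siKeap1-2 and siControl mice form separate clusters on the Keap1 axis, and within the siKeap1-1 and siKeap1-2 clusters no relation passed the test.

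To place these genes among their relatives, 66 other genes of the same enzyme families were listed, of which 58 were measured. With siKeap1-1, 8 of the 58 rose and 0 fell by limma, beside 4.82% higher and 4.67% lower among all genes. With siKeap1-2, 5 rose and 0 fell, beside 2.85% higher and 3.75% lower. At an unadjusted p below 0.05, 1 was lower with siKeap1-1 and 5 with siKeap1-2, beside 12% and 12.7% of all genes. Their median log2 fold change was -0.01 and 0.00. Blvrb, the biliverdin reductase that also reduces flavins, rose most, by 1.62 ± 0.08 and 1.30 ± 0.08 on the log2 scale (SE, n = 8 per group, limma adjusted p = 1.02e-12 and 1.24e-10). Akr1c19, an aldo-keto reductase, rose by 0.74 and 0.47 (limma adjusted p = 0.000181 and 0.0172), and Vat1, a quinone oxidoreductase homologue, by 0.32 and 0.26 (limma adjusted p = 0.00696 and 0.0345). Dcxr, which reduces dicarbonyls and L-xylulose, rose by 0.40 with siKeap1-1 (limma adjusted p = 0.0123) and had 0.32 with siKeap1-2 (limma adjusted p = 0.0579). Akr1c13 rose by 0.27 and 0.20 (limma adjusted p = 0.00141 and 0.0219). None of the 58 differed between the siRNAs by limma, where 0.242% of all genes did. At an unadjusted p below 0.05, 3 were higher and 2 lower with siKeap1-1, beside 6.33% and 2.96% of all genes.

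**Figure D4:**
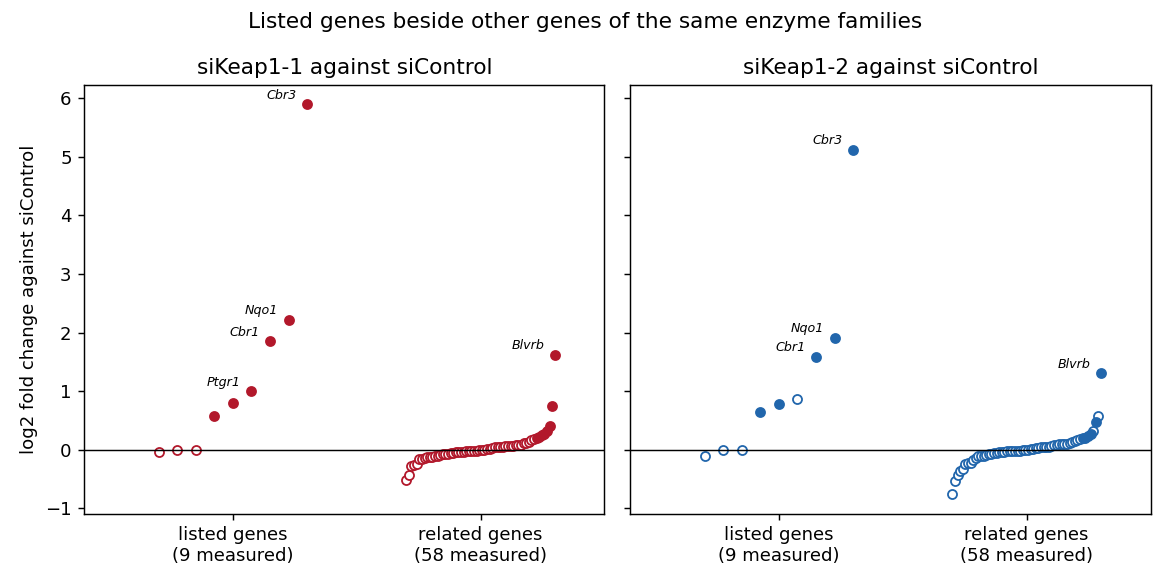
Log2 fold changes relative to siControl for the 9 measured genes and 58 related reductase and hydrolase genes, each ordered by size, for siKeap1-1 on the left and siKeap1-2 on the right. Filled points passed an adjusted p of 0.05 in limma. Cbr3, Nqo1 and Cbr1 lie above every related gene, of which Blvrb is the highest at 1.62 and 1.30.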

How the data were processed

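Each of the 24 arrays measured the liver RNA of 1 mouse, and the labels gave the siRNA and the replicate number. The authors made the deposited log2 values from the scanned arrays with RMA (background correction, quantile normalisation and probe set summary; version not given in the sources used here), and the number of arrays, 8 per group, limits the precision. The deposited table holds 45101 probe sets, of which 64 manufacturer controls were left out, and 0 columns of other samples. No filter on low signals was used. Genes were named from the platform annotation at GEO, which can be old: 34945 tested probe sets name 1 gene, 932 several and 9160 none. Groups were compared in 1 fit over the 3 groups with lmFit and eBayes of limma 3.58.1 (R 4.3.3), adjusted over all 45037 probe sets, and the scripts were tested on simulated data. Promoters and figures used Python 3.11.15 and matplotlib 3.10.9.

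The genes listed and the lists of related and marker genes were chosen with earlier results of these data known. All listed genes are named whatever their values. Of the related genes, up to 4 that rose and 4 that fell per comparison are named, by absolute log2 fold change among those with an adjusted p below 0.05. GC boxes, TATA letters, the gap in Nqo2 signal and the genomic neighbours were looked at after the values were seen. Alternatives covered normalisation, dim probe sets, array weights, covariates, subsets of controls, the replicate block, other thresholds and each array left out.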

Additional observations from a re-analysis of the deposited data

Results flagged for a closer look

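In 39 groups of 8 arrays checked for a single array far from the rest, 2 were found, where chance gives about 1 in 20. Cbr4 in siKeap1-1 replicate 3 read 11.04, the lowest of its group, where the next array read 11.32 and the highest 11.45. The second, dim Keap1 probe set in siKeap1-2 replicate 3 read 4.64, where the next array read 4.93 and the highest 5.19.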

How the results depend on the processing

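Cbr1, Cbr3, Nqo1, Ephx1 and Akr1b8 kept their direction and their adjusted p below 0.05 against siControl for both siRNAs under every alternative fit tried and with each array left out. With the cut of more than 2-fold and an unadjusted p below 0.01, 3 members passed in each comparison with siControl, and Ephx1 and Akr1b8 did not. Leaving out 1 array gave 5 to 6 members for siKeap1-1, 5 to 6 for siKeap1-2 and 0 to 1 between the siRNAs. The other changes of the call for Ptgr1, including its gain for siKeap1-2 with the first residual component as covariate, are given with that gene. The count of related genes for siKeap1-1 became 4 with the 18S probe set as covariate, 5 against siControl replicates 1 to 3 only, 5 at an adjusted p below 0.01, and 1 with the 2-fold cut. For siKeap1-2 it became 8 with another quantile normalisation, 8 without dim probe sets, 8 with the first residual component as covariate (7 higher and 1 lower), and 2 with each of the 18S covariate, siControl replicates 1 to 3 alone, siControl replicates 4 to 8 alone and an adjusted p below 0.01. It was 1 with the 2-fold cut. With 1 array left out it ran from 3 to 7 for siKeap1-2 (3 without siControl replicate 6), from 7 to 9 for siKeap1-1, and was 0 between the siRNAs. A stricter threshold leaves fewer calls by construction, and the causes of the other changes were not tested. Over all probe sets tested for siKeap1-2, 81.2% of 303 calls were higher with the 18S covariate, against 51.6% of 2748 without it.

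Replicate numbers did not pair the arrays, since 9 of 24 same-numbered pairs correlated above 0.1 (range -0.17 to 0.28) and 3 of 24 arrays correlated best with their own number. With the replicate block the member counts stayed at 6, 5 and 0 and those of related genes at 8, 5 and 0. Signals near the array background can understate differences, and whether this holds for the dim second Keap1 probe set was not tested.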

Other observations

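The nearest measured protein-coding genes beside the members on the chromosome were compared in the same fit. Up to 3 on each side were taken by the order of the RefSeq annotation of GRCm38.p6, chosen after the values were seen. Genes without a probe set of their own were passed over. Of 48 measured neighbours, 5 were higher and 4 lower with siKeap1-1, and 4 were higher and 3 lower with siKeap1-2, beside 4.82% higher and 4.67% lower among all genes for siKeap1-1 and 2.85% and 3.75% for siKeap1-2. Among the measured genes, Cbr1 and Cbr3 are next to each other on chromosome 16. On either side of this pair, Setd4 (log2 fold changes of 0.12 with siKeap1-1 and -0.15 with siKeap1-2) and Dop1b (-0.02 and 0.09) did not pass. Morc3, the next measured gene after Dop1b, was lower (-0.35 and -0.34, limma adjusted p = 0.0101 and 0.0156).

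The nearest measured gene on 1 side of Ephx1 on chromosome 1, listed as 9130409I23Rik, rose by 1.93 ± 0.18 and 1.77 ± 0.18 on the log2 scale (SE, n = 8 per group, limma adjusted p = 1.33e-07 and 7.44e-07). Tmem63a, the nearest measured gene on the other side of Ephx1, was lower (-0.53 and -0.34, limma adjusted p = 0.000107 and 0.0113).

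Akr1c6 lies in a cluster of aldo-keto reductase genes on chromosome 13. On one side of it Akr1c12, Akr1c19 and Akr1c13 had log2 fold changes of 0.20, 0.74 and 0.27 with siKeap1-1, all passed (limma adjusted p = 0.0265, 0.000181 and 0.00141), and of 0.16, 0.47 and 0.20 with siKeap1-2, where Akr1c12 did not pass (limma adjusted p = 0.0772). On the other side Akr1c20 and Akr1c21 had -0.16 and -0.02 with siKeap1-1 and -0.25 and 0.04 with siKeap1-2 and did not pass, as for Akr1c6 itself. Genes of this cluster are alike in sequence, and how far their probe sets read each other was not tested.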
